A study of Saccharomyces cerevisiae with 6 samples.

Results

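The transcripts of budding yeast without RTT109 were compared with those of wild type in 4 of the 6 libraries of the series, those titled rtt109D and WT, with 2 libraries in each group. The other 2 libraries, from a strain without HST3 and HST4, entered the same fit and are used here to show where the rtt109 deletion differs. Rtt109 is the enzyme that acetylates lysine 56 of newly made histone H3, working with the histone chaperones Asf1 and Vps75. The mark helps the chaperones CAF-1 and Rtt106 to place new histones behind replication forks in S phase, and the sirtuins Hst3 and Hst4 remove it before the next S phase. Cells that lack the mark divide, but are known for sensitivity to agents that damage replicating DNA.

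Per the labels, cells in exponential growth in rich medium were frozen, and poly(A) RNA was sequenced by strand after RNA of fission yeast had been added by mass, at 10 parts of budding yeast RNA to 1 part, as the spike-in. Each group was 1 strain, and the labels do not say that the 2 libraries of a group were separate cultures, so that p-values measure the spread between these libraries, which may be technical. All 3 strains carry, by the labels, the alleles can1-100, trp1-1, ura3-1, his3-11 15 and leu2-3 112, a deletion of BAR1 marked with HIS3, 7 copies of a thymidine kinase cassette at URA3 (URA3::GDP-TK(7x)), and the human nucleoside transporter hENT1 at AUR1. Wild type is MATa with the ade2-1 allele restored by ADE2 and an HA-tagged RNA polymerase II subunit (Rpb3-3HA::TRP). The rtt109 strain is MATa with rtt109 replaced by Kan, still carries ade2-1, lists no Rpb3 tag, and is labelled GAL, psi+ and RAD5+. The libraries labelled hst3,4DD are given as MATalpha, with the ADE2 and Rpb3 alleles of wild type and hst3 and hst4 replaced by HygMX and NatMX; against that mating-type label they held a-specific transcripts at a summed level of 155 and 100.3 and alpha-specific ones at 0.849 and 1.04. The loss of RTT109 therefore cannot be told apart from the labelled ADE2, RPB3, RAD5, GAL and psi+ differences in any result below.

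Values are mean spike-in scaled coverage per base of an open reading frame (ORF) on its sense strand, so that levels of different genes are on one scale per length. Coverage summed to 474278 and 611350 in the 2 rtt109 libraries and to 678558 and 784679 in wild type. Of 5788 ORFs with a value, 5209 were tested after the lowest 10% by mean over all libraries were left out. The deletion libraries entered that mean, so that a gene near 0 in wild type could pass by being high in a deletion. The smallest coverage step, which for a given value is larger where fewer reads stand behind it, was 0.00771 and 0.00658 in the rtt109 libraries. It was 0.00397 and 0.00543 in wild type. Counted in such steps, summed coverage was 6.15e+07 and 9.29e+07 in the rtt109 libraries against 1.71e+08 and 1.45e+08 in wild type. Replicate 1 of the rtt109 deletion had relatively less coverage in the first part of ORFs (0.706 as the median ratio of the first to the second part of an ORF, split at its middle) than replicate 2 (0.798) and wild type (0.784 and 0.798). Because the spike-in was added to RNA and not to cells, coverage is relative to total RNA, and fewer cells with a transcript cannot be told apart from less of it in each cell.

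RTT109 itself (YLL002W, chromosome 12, 146301 to 147650) was covered at 0.763 and 0.830 in wild type and at 0.00123 and 0.00342 in its deletion strain, where both values lie at or below 1 coverage step. The plot of coverage along single genes shows the gap over the whole ORF. The other labelled alleles gave no call. LEU2 had 8.67 and 10.4 in wild type and 15.8 and 18.3 in rtt109 cells, which is 0.84 on the log2 scale (adjusted p = 0.199). HIS3 had 1.07 and 1.78 against 2.94 and 2.34 (0.90, adjusted p = 0.183), and RPB3, tagged only in the other strains, had 3.32 and 3.90 against 2.23 and 2.73 (-0.53, adjusted p = 0.374). ADE2, which carries ade2-1 in the rtt109 strain, had 0.517 and 0.607 in wild type and 0.629 and 0.975 in rtt109 cells (0.45, adjusted p = 0.453), and RAD5 had 0.573 and 0.747 against 0.509 and 0.495.

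One library stood apart before any gene was considered. Across chromosome 2, replicate 2 of the rtt109 deletion lay above the other 5 libraries by a median of 0.43 on the log2 scale, or 1.34-fold, with 91.0% of 366 tested genes above the other libraries' mean. All 17 segments of 50 kb along the chromosome were raised in that library, by 0.26 to 0.68. The other 95 medians, of a chromosome in a library, lay between -0.18 and 0.20, and replicate 1 of the rtt109 deletion showed no such rise. Relative to the wild-type mean, the median chromosome 2 gene stood at -0.50 in replicate 1 and at 0.24 in replicate 2, whereas the median gene of the other chromosomes stood at -0.50 and -0.26. The number of copies of chromosome 2 was not measured here. Genes of chromosome 2 made up 17 of the 130 genes called higher and 1 of the 49 called lower, which is 4.64% and 0.273% of the chromosome's tested genes, against 2.33% and 0.991% of those elsewhere. Of the 17, 13 were higher in replicate 2 than in replicate 1, against 51 of 113 on the other chromosomes. With chromosome 2 left out 114 genes were called higher and 48 lower, and with replicate 2 lowered by its excess 135 and 63.

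**Figure D1:**
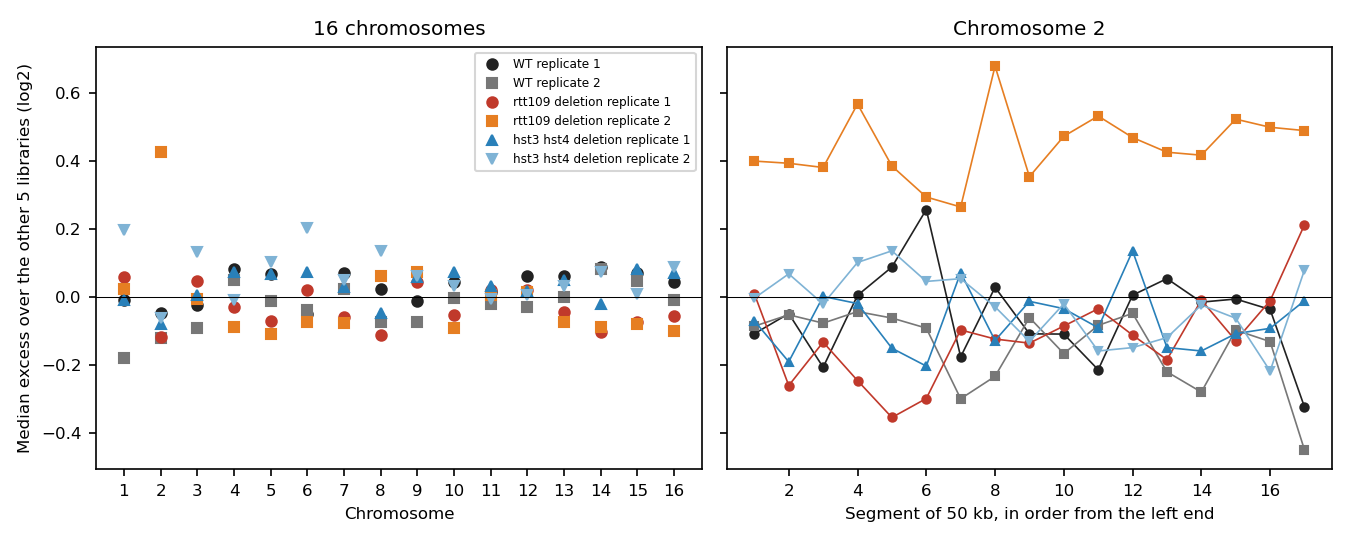
Median excess of each library over the mean of the other 5 libraries, on the log2 scale, by chromosome (left) and by 50-kb segment of chromosome 2 (right). Replicate 2 of the rtt109 deletion stands at 0.43 on chromosome 2, and all of its 17 segments are raised.

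In all, limma called 130 genes higher without RTT109, 2.5% of those tested, and 49 lower, 0.941% (Benjamini-Hochberg adjusted p under 0.05). At an unadjusted p under 0.05 there were 1041 genes. Of the 130 genes that rose 101 had a wild-type mean under 1, against 9 of the 49 that fell. The share of all tested genes under 1 was not counted, so these counts do not show that rises favoured low genes. Coverage cannot fall below 0, so a gene near 0 in wild type could be called higher but hardly lower. The difference between rises and falls is therefore not independent of this limit. Rises were also larger, which the same limit favours. Of the genes called higher 44 changed at least 4-fold and 12 at least 8-fold, and of those called lower 4 and 1. Both rtt109 libraries lay above both wild-type libraries in 126 of the 130, and below both in all 49, beside 11.5% and 48.6% of all genes tested. The 4 called rises with overlapping groups were HSP30, STP4, TPO2 and CIP1.

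The split between rises and falls depends on the scale. The median gene was lower without RTT109 by 0.37 on the log2 scale of the spike-in, with the 4 pairs of libraries at -0.62 to -0.07 (exact permutation test of the library medians, two-sided p = 0.333, the smallest that 2 against 2 allows). With each library centred on its median gene, 153 genes were called higher and 11 lower, and on the authors' scale normalized to 1 the counts were 245 and 10. The 11 that were still called lower when centred were RTT109, HO, HTA1, TNA1, NRT1, SPS4, SFG1, FAR1, FAA3, MMO1 and YGL204C. Single libraries also moved the counts, to 119 higher and 129 lower when the first wild-type library was left out, and to 63 and 21 when the second was. Leaving out the first rtt109 library left 3 rises and 1 fall, and leaving out the second left 2 and 1. PIR3, GRE1 and RTT109 were called in both of those fits, in which the prior degrees of freedom of the spread dropped from 37.2 to 4.42.

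**Figure D2:**
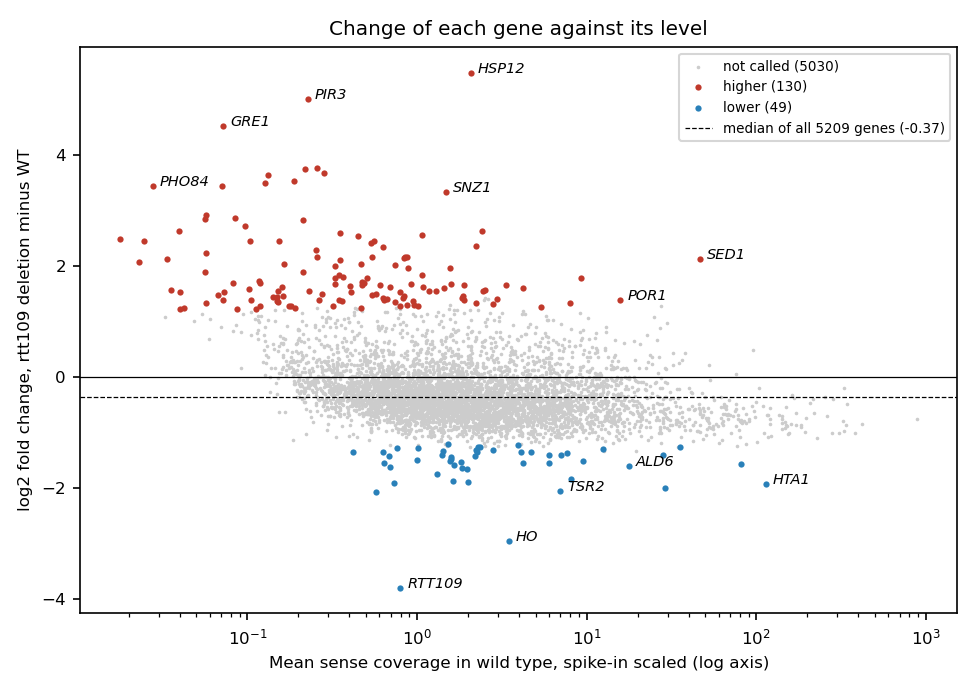
Log2 fold change of each of 5209 tested genes, rtt109 deletion minus wild type, against mean sense coverage in wild type on a log axis, with genes called higher in red and lower in blue. Most called rises sit at wild-type levels under 1, and the dashed line marks the median of all genes at -0.37.

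Many of the largest rises were in genes of the general stress response, which the related factors Msn2 and Msn4 switch on when growth slows or cells are stressed. HSP12 (YFL014W, chromosome 6, 107251 to 107650), a small protein that protects membranes, had 0.560 and 3.59 in wild type and 83.4 and 54.2 in rtt109 cells, a log2 fold change of 5.48 ± 0.49 (SE; adjusted p = 1.40e-10). Both deletion libraries were far above both wild-type libraries, although the wild-type libraries differed 6.41-fold from each other. PIR3 (YKL163W, chromosome 11, 144451 to 145450), a repeat-rich protein linked to glucan in the cell wall, had 0.259 and 0.198 against 7.86 and 10.6 (5.0 ± 0.37, adjusted p = 5.73e-13). Within each group its libraries lay close together.

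Hydrophilins, small water-loving proteins made on drying and osmotic stress, rose with them. GRE1 had 0.0614 and 0.0826 in wild type and 3.43 and 2.56 in rtt109 cells (log2 fold change 4.53, adjusted p = 5.74e-12), and SIP18 had 0.163 and 0.0909 against 2.48 and 1.64 (3.51, adjusted p = 3.27e-08). The small heat shock protein gene HSP26, on chromosome 2, had 0.341 and 0.173 against 4.48 and 3.78 (3.77, adjusted p = 2.66e-09), so that replicate 1, which lacks the rise of that chromosome, held the higher value. DDR2, a small stress protein, went from 0.431 and 0.139 to 5.46 and 2.86 (3.69) and MOH1, also on chromosome 2, from 0.126 and 0.138 to 2.24 and 2.43 (3.65). In all of these genes the groups were apart by more than the difference between their own libraries.

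**Figure D3:**
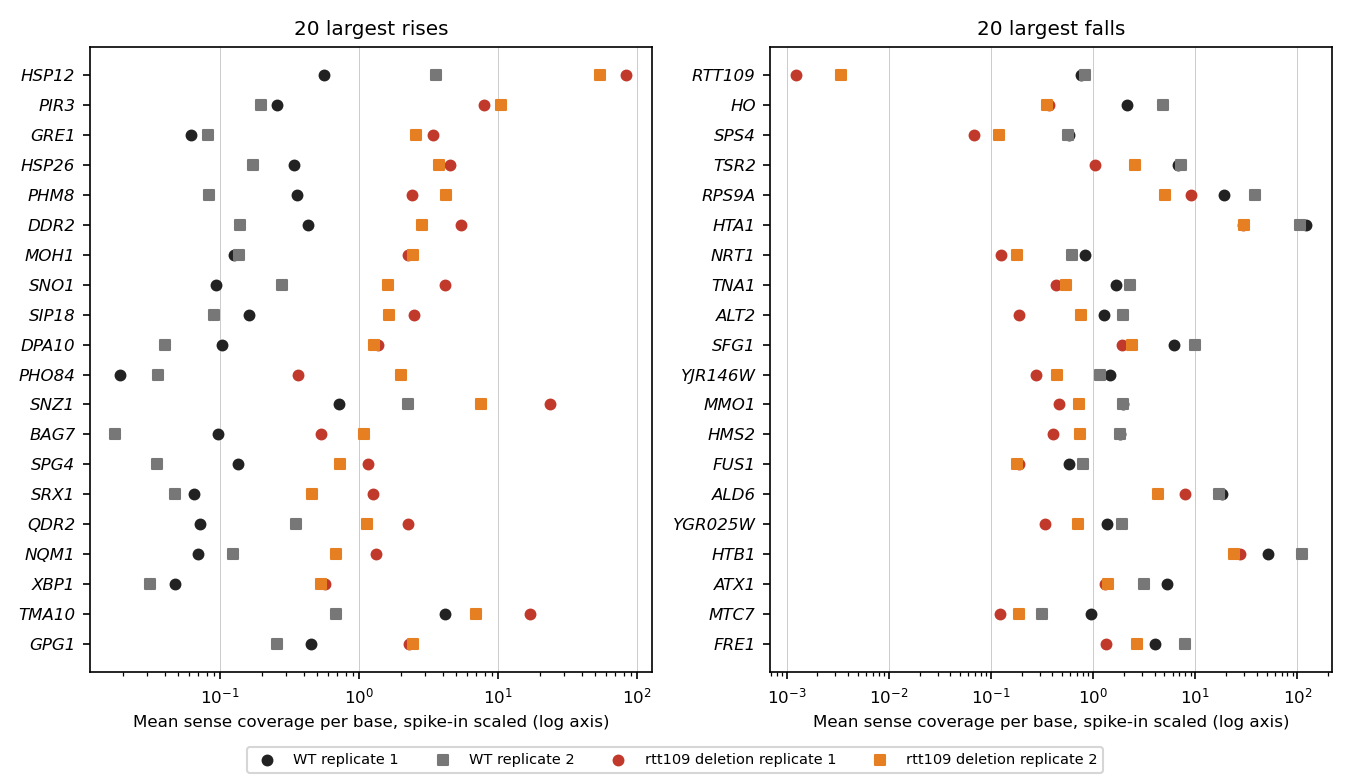
Mean sense coverage per base (log axis) of the 20 largest called rises and the 20 largest called falls whose groups did not overlap, with 1 point for each wild-type and rtt109 deletion library. HSP12 lies at 83.4 and 54.2 in the deletion, and the wild-type libraries lie at 0.560 and 3.59.

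Counts on this and the following lists stand beside 2.5% of all genes called higher and 0.941% called lower. The lists were chosen with earlier results of these data known. A share on a list that exceeds that of all genes is therefore a description and no independent support. Of 42 tested genes on the general stress list, 23 rose (54.8%) and none fell, and both deletion libraries were above both wild-type libraries in 36, beside 11.5% of all genes. The list had a median of 1.44 beside -0.37 for all genes on the log2 scale, and 1.73 in replicate 1 and 1.02 in replicate 2 taken alone. Besides those above, carbohydrate genes were among its members. GPH1, the glycogen phosphorylase, had 0.0692 and 0.138 in wild type and 1.14 and 0.566 in rtt109 cells (2.45, adjusted p = 4.28e-05). HXK1, hexokinase isoenzyme 1, had 0.487 and 0.529 against 2.57 and 1.39 (1.78), and GLK1, glucokinase, 2.09 and 1.71 against 6.57 and 3.88 (1.39). NQM1, a transaldolase relative, had 0.0699 and 0.124 against 1.32 and 0.686 (2.72), and XBP1, a repressor induced by stress, 0.0475 and 0.0312 against 0.565 and 0.535 (2.63). Each of these was higher in both deletion libraries. Not all stress genes passed. The disaggregase gene HSP104 had a log2 fold change of 0.28 and the Hsp70 gene SSA4 one of 0.47, and the trehalose list had 0 of 9 members called, with a median of 0.29 (TSL1 1.06, adjusted p = 0.134). Without replicate 2 of wild type 15 of the 42 stress genes were called, and without either rtt109 library 2, PIR3 and GRE1.

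Markers of entry into stationary phase moved with this group. Of 8 such genes (HSP12, HSP26, SPG1, SPG4, SNZ1, SNO1, GRE1 and SIP18), 7 were tested and all 7 rose, and they summed to 2.17 and 6.60 in wild type against 123 and 72.2 in rtt109 cells, with all 8 counted. HSP12 made up 83.4 and 54.2 of the latter sums. The hst3 hst4 libraries had sums of 65.5 and 30.3, between those of the other strains. SPG1, left out as low, had 0.107 and 0.111 against 0.211 and 0.0895. The density at which each culture was frozen was not analysed here, and its part in the stress group was not tested. The general stress list holds 4 of these 8 genes, so that the counts are not independent.

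The letters AGGGG, the stress response element (STRE) that Msn2 and Msn4 bind, were counted on both strands from 250 bases before to 50 after the start of each gene. They were present for 37.7% of the 130 genes called higher, 22.4% of the 49 called lower and 21.6% of 6001 promoters in all, and for 64.3% of the general stress list. By number of matches, 1.99% of tested genes with none were called higher, 4.09% with 1, 4% with 2 and 14.8% of the 27 genes with 3 or more. Of the 20 largest rises only HSP12, DDR2, MOH1 and NQM1 had a match in this window, while PIR3, GRE1, HSP26 and SIP18 had none. The matches in 3 of these promoters are shown in capitals (AGGGG, or CCCCT where it lies on the other strand), 250 to 81 bases before the start, from RefSeq's R64 assembly of a reference strain and written 5′ to 3′ on the gene's strand. HSP12 is from chr6:107006-107175 (plus strand), DDR2 from chr15:231836-232005 (minus) and NQM1 from chr7:581517-581686 (minus).
HSP12: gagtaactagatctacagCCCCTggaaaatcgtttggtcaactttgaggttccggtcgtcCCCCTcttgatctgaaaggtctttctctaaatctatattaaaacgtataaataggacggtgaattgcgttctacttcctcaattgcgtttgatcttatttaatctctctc
DDR2: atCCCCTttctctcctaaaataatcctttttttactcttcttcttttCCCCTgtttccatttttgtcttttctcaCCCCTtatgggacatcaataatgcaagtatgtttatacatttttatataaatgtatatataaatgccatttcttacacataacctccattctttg
NQM1: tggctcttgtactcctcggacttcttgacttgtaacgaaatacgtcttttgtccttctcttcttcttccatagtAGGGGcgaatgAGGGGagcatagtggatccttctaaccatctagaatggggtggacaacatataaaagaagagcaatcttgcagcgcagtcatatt

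Genes of vitamin B6 and B1 synthesis rose in part. SNZ1 and SNO1, divergent neighbours on chromosome 13 whose products together make pyridoxal phosphate, were low in wild type, SNZ1 at 0.713 and 2.25 and SNO1 at 0.0936 and 0.281. In rtt109 cells they reached 23.8 and 7.60 for SNZ1 (log2 fold change 3.34, adjusted p = 1.26e-06) and 4.13 and 1.62 for SNO1 (3.54, adjusted p = 5.51e-08). In both genes replicate 1 was the higher of the deletion libraries, and wild-type replicate 2 the higher of the wild-type libraries. Of 17 tested members of the list 6 rose and none fell (median 0.54); the others were THI4, which makes the thiazole of vitamin B1, the regulator THI2 on chromosome 2, and SNZ2 and SNZ3, whose near-identical sequences make their values uncertain. THI4 had 0.0861 and 0.233 against 0.408 and 0.810 (1.63).

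At the cell wall and membrane, mannoproteins differed among themselves. SED1, the abundant anchored mannoprotein of resting cells, had 48.5 and 44.2 in wild type and 168 and 244 in rtt109 cells, which is 2.13 on the log2 scale (adjusted p = 1.35e-04), and was the most highly expressed of the genes that rose. YGP1, a secreted glycoprotein, had 4.11 and 2.57 against 7.96 and 13.7 (1.67). SPI1, induced by weak acids, had 1.43 and 0.248 against 2.04 and 4.18 (2.14), its wild-type libraries being 5.76-fold apart. With PIR3 these were the 4 of 17 mannoprotein genes that rose, and none fell (median 0.42). Among other PIR-type genes, PIR1 stood at -0.78 on the log2 scale (adjusted p = 0.237), HSP150 at 0.67 and CIS3 at 0.18, and none of these was called. Among wall synthesis genes the stress glucan synthase GSC2 rose (0.350 and 0.376 against 0.756 and 1.40), and the glucanase EGT2 and the glucan-modifying GAS3 fell.

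Membrane proteins that rose included HSP30, which restrains the proton pump Pma1, with 3.17 and 13.1 in the deletion. Its wild-type libraries lay at 4.17 and 0.319, so that the groups overlapped. YRO2, a relative of HSP30 on chromosome 2, had 4.18 and 4.26 against 7.77 and 21.7 (1.61, adjusted p = 0.0209), with the larger value in the library in which that chromosome is raised. PMA1 itself stood at -0.72 on the log2 scale (adjusted p = 0.270). The exporter QDR2 had 0.0718 and 0.353 against 2.24 and 1.14 (2.84, adjusted p = 1.01e-05), and the polyamine exporter TPO2 2.73 and 0.412 against 2.27 and 8.52 (1.96, adjusted p = 0.0171), again with overlapping groups. On the membrane and eisosome list 4 of 19 genes rose, HSP30, YRO2, DDR2 and SPG4, and none fell. DDR2 and SPG4 are named above among stress and stationary-phase genes, so this is not a count of membrane proteins alone.

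In the phosphate response PHO84 and PHO5 differed widely between the 2 deletion libraries. This pathway, in which the factor Pho4 enters the nucleus when phosphate runs low, includes the transporter PHO84 and the acid phosphatase PHO5. PHO84 had 0.0192 and 0.0361 in wild type and 0.364 and 2.01 in rtt109 cells (log2 fold change 3.44 ± 0.44, adjusted p = 7.12e-07). PHO5, on chromosome 2, had 0.207 and 0.220 against 0.359 and 2.42 (1.90 ± 0.46, adjusted p = 0.0104). Replicate 2 exceeded replicate 1 by 5.54-fold in PHO84 and 6.74-fold in PHO5, the latter being the widest gap among the 130 rises, although both deletion libraries lay above wild type. PHM8, a nucleotidase made under low phosphate and stress, had 0.356 and 0.0829 against 2.41 and 4.21 (3.74). Of 17 tested phosphate genes 4 rose and none fell, and the median was -0.22. The fourth was GPP2, a glycerol-phosphate phosphatase that is also counted among the osmotic genes below. The vacuolar polyphosphate genes VTC1 to VTC4 had log2 fold changes of -0.50, -0.58, -0.01 and -0.22, and PHO81, the kinase inhibitor of the pathway, -0.50; none was called.

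Genes for carbon sources other than glucose rose in part. ADH2, the alcohol dehydrogenase used on ethanol and shut off by glucose, had 0.0400 and 0.0269 in wild type and 0.413 and 0.283 in rtt109 cells (2.12, adjusted p = 1.42e-04). IDP2, cytosolic isocitrate dehydrogenase, had 0.187 and 0.275 against 0.759 and 0.799 (1.55), and ALD4, the mitochondrial acetaldehyde dehydrogenase, 0.493 and 0.788 against 2.71 and 1.09 (1.38). ALD6, the cytosolic enzyme for the same reaction, moved the other way, from 18.3 and 17.1 to 7.87 and 4.28 (-1.6, adjusted p = 0.00746). The 2 acetaldehyde dehydrogenases thus changed in opposite directions in both deletion libraries. SFC1 was the remaining riser among 14 tested genes of gluconeogenesis and two-carbon use, of which 4 rose and 1 fell (median 0.79). ICL1 and PCK1, the key enzymes of the glyoxylate cycle and of gluconeogenesis, had log2 fold changes of 0.23 and 0.83 and were not called.

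The tricarboxylic acid cycle list had a median of 0.62 with 0 of 14 genes called and 9 with both deletion libraries above wild type. CIT1, citrate synthase, had 3.00 and 2.40 against 4.78 and 7.58 (1.15, adjusted p = 0.0785). Of the markers of respiratory deficiency, PDH1 rose (0.252 and 0.265 against 0.996 and 1.84, log2 fold change 2.16), while CIT2 (0.74) and DLD3 (0.56) did not pass. TDH1, the glyceraldehyde-3-phosphate dehydrogenase isoform of slow growth, was the only 1 of 16 glycolytic genes called, with 1.58 and 0.165 against 2.02 and 3.50 (2.17), and its wild-type libraries were 9.55-fold apart. POR1, the mitochondrial porin, was among the higher expressed genes that rose, from 16.2 and 15.4 to 47.0 and 36.4 (1.39).

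Osmotic and oxidative stress genes rose in small numbers. On the osmotic list 4 of 14 rose: GRE1, SIP18, GCY1 and GPP2. GPP2, a glycerol-phosphate phosphatase, had 2.08 and 2.84 against 7.03 and 7.50 (1.56), while GPD1, the enzyme before it, had a log2 fold change of 0.07. Of 29 oxidative stress genes 3 rose (10.3%, beside 2.5% of all genes) and none fell (median 0.13). SRX1, the sulfiredoxin that repairs peroxiredoxins, had 0.0653 and 0.0473 against 1.26 and 0.462 (2.85, adjusted p = 1.91e-05), and CTT1, the cytosolic catalase, 0.304 and 0.246 against 1.31 and 0.589 (1.5). GTT1 was the remaining member, and the abundant peroxiredoxin gene TSA1 had -0.22.

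Of 27 chaperone genes, 2 rose and 1 fell. HSC82, constitutive Hsp90, fell from 33.9 and 37.5 to 15.2 and 14.3 (log2 fold change -1.27, adjusted p = 0.0361), while HSP26 and the Hsp110 gene SSE2 on chromosome 2 (0.451 and 0.283 against 1.1 and 1.76) rose. The other 24 were not called, and with each library centred HSC82 was not called either. Of 20 autophagy genes ATG8, whose protein coats the growing autophagosome, and ATG39, a receptor for nuclear envelope, rose, and of 8 vacuolar proteases PRB1 rose (3.01 and 2.05 against 6.46 and 8.70). ATG8 had 2.24 and 1.46 against 4.10 and 6.0, and it too lies on chromosome 2. With that chromosome of rtt109 replicate 2 lowered by its excess, 1 of the 20 autophagy genes was called. None fell on either list.

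Nitrogen and purine genes gave single calls. PUT1 of proline use, UGA2 of GABA use and DAL4, the allantoin permease, rose among 27 nitrogen genes, with log2 fold changes of 1.29, 1.29 and 1.34. UGA2 lies on chromosome 2 and had 1.12 and 0.802 in wild type and 1.90 and 3.05 in rtt109 cells. With chromosome 2 of rtt109 replicate 2 lowered by its excess, 2 of the 27 were called. Of 26 genes for adenine and one-carbon units, those called were ADE17 (0.956 and 1.21 against 3.29 and 3.56, 1.62) and ADE12 (2.49 and 3.46 against 7.90 and 7.94, 1.41), and both rose. The adenine deaminase gene AAH1 fell, from 4.91 and 9.28 to 1.99 and 3.16 (-1.41, adjusted p = 0.0266). By the labels the rtt109 strain alone carries ade2-1, whose part in these genes was not tested.

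**Figure D4:**
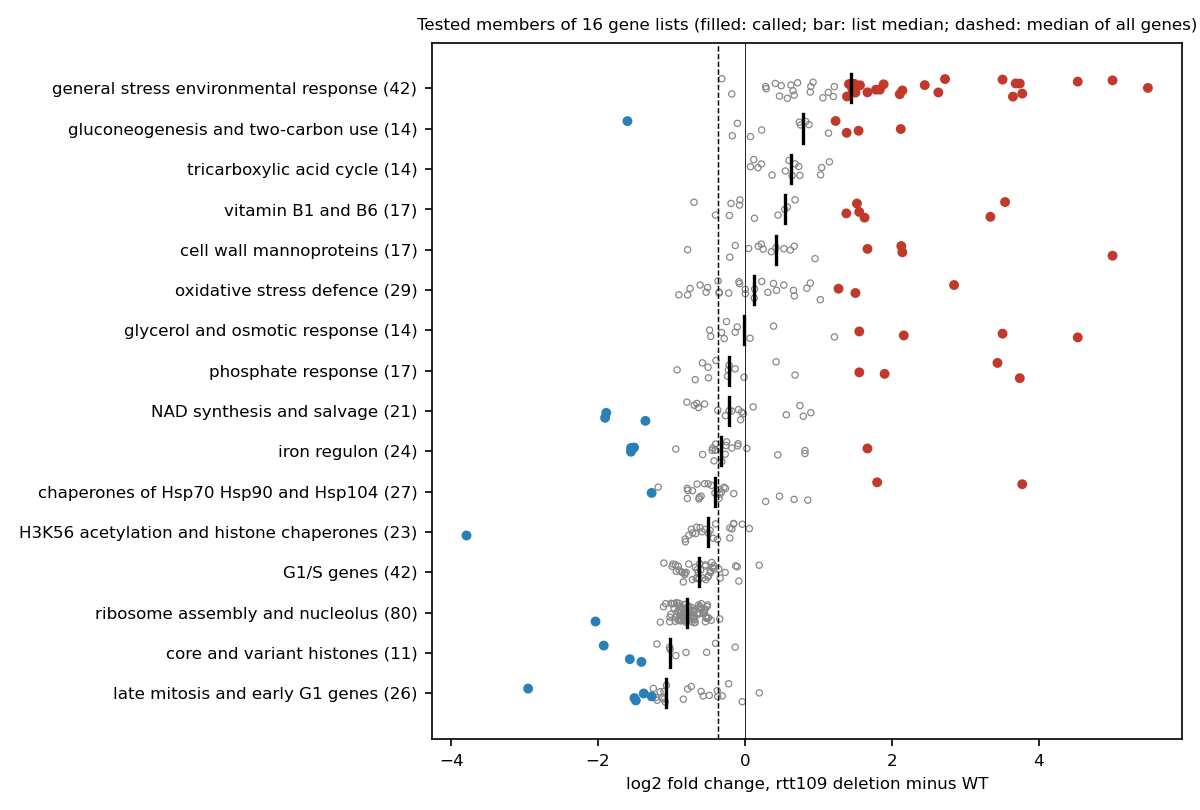
Log2 fold changes, rtt109 deletion minus wild type, of the tested members of 16 gene lists, with called members filled, the list median as a bar and the median of all genes dashed at -0.37. The general stress list stands highest with a median of 1.44, and the list of late mitosis and early G1 lowest with -1.08.

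Genes expressed as cells leave mitosis and pass through G1 were among those that fell. HO (YDL227C, chromosome 4, 46301 to 48100), the endonuclease of mating-type switching, made by mother cells late in G1, had 2.13 and 4.83 in wild type and 0.374 and 0.353 in rtt109 cells (log2 fold change -2.95 ± 0.38, adjusted p = 7.66e-07). The deletion libraries lay close together and below both wild-type libraries, along the whole ORF. FAR1, the inhibitor of G1 cyclin kinase, had 1.37 and 1.79 against 0.462 and 0.591 (-1.49, adjusted p = 0.0112). BUD9, which marks the bud site opposite the birth scar, had 1.14 and 0.860 against 0.241 and 0.400 (-1.5), and EGT2, a wall hydrolase of cell separation, 8.63 and 6.66 against 2.39 and 3.47 (-1.38). With DSE3 these were the 5 of 26 tested members of the late mitosis and early G1 list that fell, 19.2% beside 0.941% of all genes. None rose. HO, the largest of these falls, is made later in G1 than the name of the list says. In 22 both deletion libraries lay below both wild-type libraries, beside 48.6% of all genes, and the median was -1.08.

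Several daughter-specific genes of this list came close without passing, among them DSE1 (-1.25, adjusted p = 0.0541), SCW11 (-1.21, 0.0576) and CTS1 (-1.07, 0.109), and the Swi5-controlled inhibitor SIC1 had -0.37. With each library centred, HO and FAR1 were the 2 members still called. Without replicate 1 of wild type 3 of the 26 were called, without replicate 2 of wild type 2, without either rtt109 library 0, and with chromosome 2 of rtt109 replicate 2 lowered 9. The 42 G1/S genes had a median of -0.62 and the 27 G2/M genes one of -0.25, with no member called in either. TOS4 had 1.82 and 3.22 in wild type and 1.12 and 1.26 in rtt109 cells (adjusted p = 0.142), and CLB2, the main mitotic cyclin, 1.64 and 2.41 against 0.841 and 1.19 (adjusted p = 0.164).

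Of the 4 genes of histones H2A and H2B, 3 fell. HTA1 had 123 and 105 in wild type and 29.6 and 30.3 in rtt109 cells (-1.92 ± 0.38, adjusted p = 9.85e-04). HTB1, its divergent neighbour on chromosome 4, had 51.7 and 112 against 27.2 and 24.1 (-1.57, adjusted p = 0.0126). HTB2 had 24.7 and 31.9 against 6.37 and 17.4 (-1.41, adjusted p = 0.0346), and was the single gene of chromosome 2 called lower, with the higher value in the library in which that chromosome is raised. HTA2, its neighbour, did not pass (101 and 72.2 against 25.6 and 53.9, -1.20, adjusted p = 0.0975). All 4 genes of H2A and H2B had both deletion libraries below both wild-type libraries; the copies are near-identical in sequence, so that their separate values are uncertain.

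The genes of H3 and H4, the pair of which Rtt109 acetylates H3, had log2 fold changes of -0.94 (HHT1), -0.52 (HHT2), -1.03 (HHF1) and -1.02 (HHF2), with adjusted p between 0.144 and 0.385. HTZ1, the H2A.Z variant, had -0.80 and CSE4, the centromeric H3, -0.13. In all 3 of 11 tested histone genes fell, and the median was -1.02. With each library centred HTA1 alone was called, and the list's median was -0.72. Without replicate 2 of wild type 1 histone gene was called, and without either rtt109 library 0. Poly(A) selection reads only polyadenylated histone transcripts, which in this yeast are the usual form.

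Genes that work with Rtt109 did not change in a way that passed. Of 23 tested genes of H3K56 acetylation and histone chaperones RTT109 itself was the only one called, and the median was -0.50. ASF1 had 1.46 and 2.07 in wild type and 0.879 and 1.19 in rtt109 cells (-0.73, adjusted p = 0.259), VPS75 2.50 and 4.32 against 1.84 and 1.99 (-0.76, adjusted p = 0.242), and RTT106 2.49 and 4.49 against 2.13 and 2.29 (-0.58, adjusted p = 0.360). HST3, whose protein removes the mark, had 1.32 and 1.36 against 0.718 and 1.21 (-0.50, adjusted p = 0.411), and HST4 0.470 and 0.672 against 0.473 and 0.487, with overlapping groups. Of 10 tested genes of the ubiquitin ligase pathway and fork factors that act after the mark, none was called (RTT107 -0.86, adjusted p = 0.205; TOF1 -0.68, adjusted p = 0.282). Among 22 checkpoint and ribonucleotide reductase genes none was called. HUG1, a checkpoint target, had 0.262 and 0.318 against 0.799 and 0.546 (1.05, adjusted p = 0.125), with the groups apart.

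Genes for making ribosomes were called about as rarely as genes in general. TSR2, which acts in maturation of the small subunit, had 6.71 and 7.30 in wild type and 1.04 and 2.60 in rtt109 cells (-2.05 ± 0.44, adjusted p = 0.00316) and was the only 1 of 80 tested assembly genes called (1.25%, beside 0.941% of all genes). The median of the 80 was -0.79, but it was -1.20 in replicate 1 and -0.37 in replicate 2 taken alone, beside -0.50 and -0.22 over all genes. On the spike-in scale all 80 fold changes were below 0, from -2.05 to -0.34, and with each library centred the median was -0.50 and 0 were called. In 40 of the 80 both deletion libraries lay below both wild-type libraries, a share close to the 48.6% of all genes. RPC17, a subunit of RNA polymerase III, had 1.66 and 1.16 against 0.333 and 0.706 (-1.40, adjusted p = 0.0486), the only call among 34 genes of polymerases I and III. MES1 was the only call among 21 tRNA synthetases. It was read from 3 usable bins (chromosome 7, 1021701 to 1021950) and was not called with each library centred. No call was made among 37 genes of translation (median -0.67). RPS9A had 19.3 and 38.9 against 9.10 and 5.11 (-2.0), and has a near-identical copy. Without replicate 1 of wild type 14 of the 80 assembly genes were called lower.

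Most of the assembly genes hold the PAC motif, GATGAG, which the repressors Dot6 and Tod6 bind. It was found on either strand for 73 of the 80 (91.2%), against 20.4% of 6001 promoters, 14.6% of the genes called higher and 18.4% of those called lower.

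Uptake genes for precursors of NAD fell. NRT1, the nicotinamide riboside transporter, had 0.839 and 0.625 in wild type and 0.125 and 0.180 in rtt109 cells (-1.90, adjusted p = 6.82e-04), and TNA1, the nicotinic acid permease, 1.68 and 2.30 against 0.435 and 0.545 (-1.89, adjusted p = 7.99e-04). BNA7 of the kynurenine pathway had 3.04 and 6.31 against 1.79 and 1.57 (-1.35, adjusted p = 0.0361). These were the 3 of 21 tested NAD genes that fell, none rose, and the median was -0.21. PNC1, the nicotinamidase and a stress gene, had 0.90 (adjusted p = 0.180). Of 24 iron genes the ferric reductase FRE1, the permease FTR1 and the copper chaperone ATX1 fell, and FIT2, a wall mannoprotein that holds iron carriers, rose. FTR1 had 9.28 and 9.64 against 3.50 and 3.09 (-1.51), while FET3, the oxidase that pairs with it, did not pass (-0.94, adjusted p = 0.172).

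Mating-type genes were those of the MATa label in both strains. The a-specific genes STE2, STE6, MFA1, MFA2, ASG7 and AGA2 summed to 99.3 and 113 in wild type and to 47.3 and 56.9 in the deletion, and the alpha-specific genes to between 0.453 and 0.726 in the 4 libraries, mostly SAG1. No a-specific gene was called; the pheromone receptor gene STE2 had 15.5 and 30.2 against 9.84 and 9.83 (-1.13, adjusted p = 0.0908). FUS1, a cell fusion gene induced by pheromone, fell (0.582 and 0.805 against 0.189 and 0.178, -1.62, adjusted p = 0.00670), as did STE18, the gamma subunit of the pheromone G protein (-1.35). Meiosis markers were low throughout, with sums of 0.979 and 0.761 in wild type and 1.19 and 1.28 in the deletion. SPS4, a sporulation gene, fell from 0.579 and 0.571 to 0.0681 and 0.119 (-2.07, adjusted p = 3.32e-04), and DMC1 had 0.123 and 0.117 against 0.394 and 0.348 (adjusted p = 0.0541).

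The direct contrast with the hst3 hst4 deletion, in which the mark is known to persist, gave 31 genes higher in the rtt109 deletion (0.595% of those tested) and 41 lower (0.787%), with the 2 deletion groups tested against each other in the same fit. Of the 130 genes that rose without RTT109 19 were also in this contrast, and of the 49 that fell 8, all of them further from wild type in the rtt109 deletion. These genes were chosen by their change in the same rtt109 libraries, which favours a larger change there. That direction and the medians below therefore do not show which deletion has the stronger effect. Most rises therefore gave no call in this contrast. Against the same wild-type libraries, which both comparisons share, the 130 had a median log2 difference of 1.66 in rtt109 cells and 1.27 in the hst3 hst4 deletion, and the 49 had -1.49 and -0.45. HSP12, PIR3 and HSP26 stood at 4.37, 4.20 and 3.51 in the hst3 hst4 deletion, beside 5.48, 5.0 and 3.77 in rtt109 cells. HO had 2.02 and 2.30 in the hst3 hst4 libraries, and its difference was -2.39 ± 0.38 on the log2 scale (adjusted p = 2.21e-04). ALD6 had 17.2 and 18.4 there (-1.61, adjusted p = 0.0139), NRT1 0.602 and 0.681 (-1.74, adjusted p = 0.00589) and FAR1 1.44 and 1.6 (-1.44, adjusted p = 0.0277). These 4 genes were thus lower without RTT109 than in either of the other strains.

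Among rises, PHO84 had 0.112 and 0.0862 in the hst3 hst4 libraries (difference 2.57, adjusted p = 5.67e-04), QDR2 0.275 and 0.232 (2.41, adjusted p = 5.67e-04) and BAG7 0.0888 and 0.107 against 0.535 and 1.08 in rtt109 cells (2.39, adjusted p = 2.85e-04). RTC2, of vacuolar amino acid export and on chromosome 2, had 0.473 and 0.599 in wild type, 4.16 and 2.28 in rtt109 cells and 0.891 and 0.411 in the other (2.23, adjusted p = 6.06e-04). GRE1 (0.738 and 0.804) also differed (1.87, adjusted p = 0.00290), whereas for HSP12 (52.5 and 18.3) and PIR3 (5.90 and 4.56) the differences of 1.11 ± 0.49 and 0.81 ± 0.37 did not pass (adjusted p = 0.291 and 0.30). HUG1 was higher in the hst3 hst4 deletion, at 3.35 and 1.91 (-1.85, adjusted p = 0.00459), and LEU2 lower there, at 6.11 and 4.88 (1.63, adjusted p = 0.0108).

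Antisense coverage, on the strand opposite to the ORF, gave no call among 5013 genes in either direction (0% higher and 0% lower), by limma. At an unadjusted p under 0.05 there were 301 genes. The median ORF had antisense coverage of 0.0492 and 0.0121 in wild type and 0.0241 and 0.0155 in rtt109 cells. These values lie under the pseudocount of 0.0592, which shrinks such changes, and the wild-type libraries differed widely. The absence of calls therefore does not show that antisense transcripts were unchanged. RIM4 and NRT1, both called on the sense strand, were among the 10 genes of smallest p. RIM4, a meiotic RNA-binding protein gene whose sense transcript rose from 0.0729 and 0.0420 to 0.584 and 0.404 (2.24), had antisense coverage of 0.270 and 0.225 in wild type and 0.0639 and 0.0766 in rtt109 cells (adjusted p = 0.529). NRT1, whose sense transcript fell, had antisense coverage of 0.0636 and 0.0665 against 0.186 and 0.219 (adjusted p = 0.529). The antisense strand of CTF13, which faces the end of SNO1 on chromosome 13, had 0.0291 and 0.0474 against 0.926 and 0.298, and that of ARA1 0.341 and 0.399 against 0.0550 and 0.0676 (adjusted p = 0.514).

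Coverage along the ORF gave 1 call among 2499 genes with enough bins, GPI10 (0.04% higher in the ratio of first to second part of the ORF, and 0% lower). GPI10 (YGL142C, chromosome 7, 236301 to 238200) encodes a mannosyltransferase of the membrane anchor made from phosphatidylinositol. In wild type its ratio was 0.325 and 0.282, in the hst3 hst4 deletion 0.254 and 0.25, and 0.702 and 0.794 in rtt109 cells (log2 fold change of the ratio 1.30, adjusted p = 0.0266). The first part was covered at 0.800 and 1.20 in wild type and 0.683 and 0.691 in rtt109 cells, the second part at 2.59 and 4.39 against 0.999 and 0.885. Coverage in wild type was thus higher in the second part of the ORF than in the first, and less so without RTT109. The call was lost, with 0 genes called, when only the 4 wild-type and rtt109 libraries were fitted, with a replicate block, with no filter on low values, with the lowest 25% left out, and without replicate 1 of the rtt109 deletion.

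**Figure D5:**
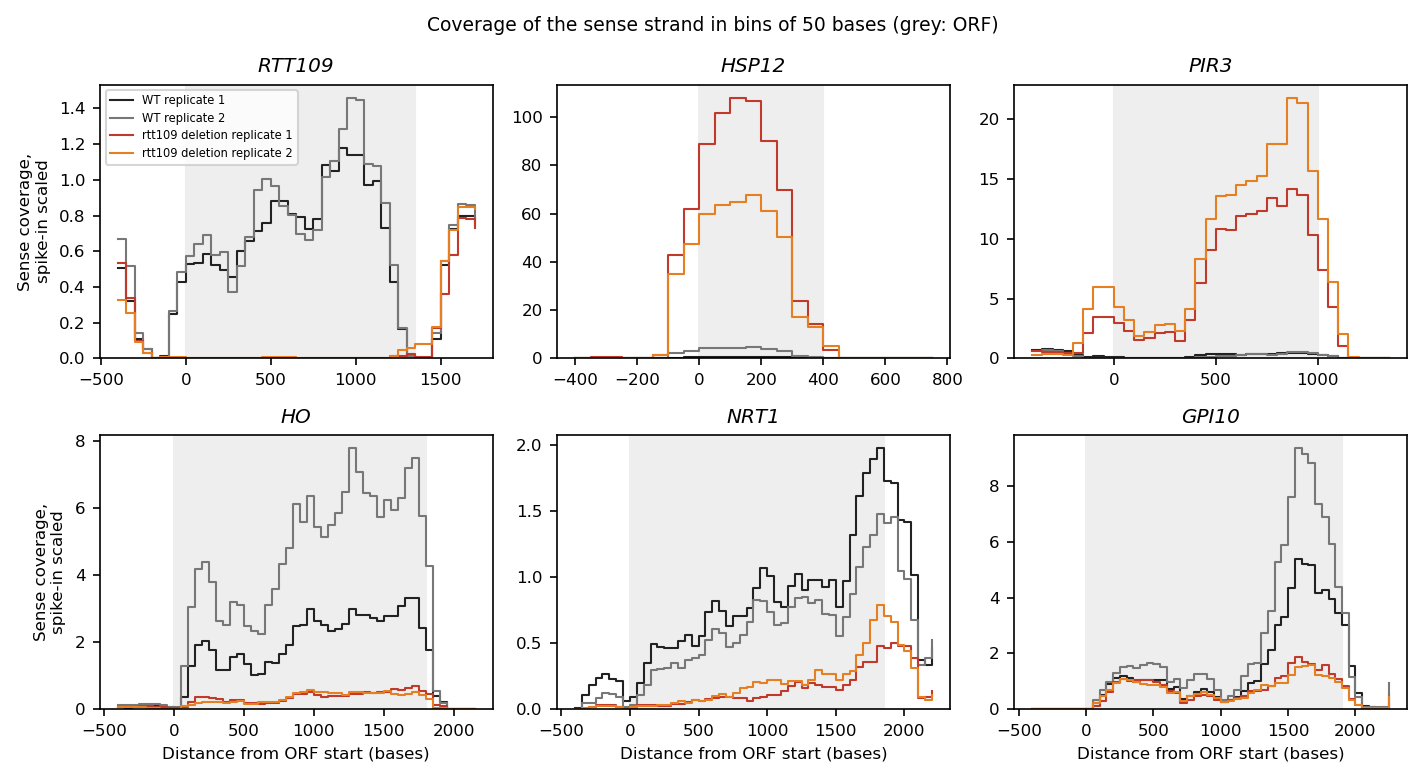
Spike-in scaled sense coverage in bins of 50 bases against distance from the ORF start, for 4 libraries and 6 genes chosen for their results above, with the ORF shaded. RTT109 coverage is near 0 over the deleted ORF, HO and NRT1 are lower along their length, and the peak at the end of GPI10 is lower in both deletion libraries.

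Genes near chromosome ends were called higher more often than the rest, and groups by replication timing lay close together. In 4 groups of equal size by the deposited replication timing value the medians on the log2 scale were -0.35, -0.37, -0.37 and -0.38, with 2.3 to 2.76% of genes called higher. Within 20 kb of a chromosome end the 100 tested genes had a median of -0.10, with 9% called higher and 2% lower, beside -0.38, 2.28% and 0.908% of the 4735 genes beyond 50 kb; this difference was not tested. In 10 groups by mean level over all 6 libraries the medians ran from -0.12 in the lowest to -0.52 in the highest. Of genes in the lowest and the highest group 5.95% and 0.96% were called higher. A gene near 0 in wild type could enter the lowest group by being high in a deletion, so the 5.95% is not independent of the rises. Tested genes were also taken in order along each chromosome. Genes called in the same direction followed each other in 12 pairs, 8 of rises and 4 of falls. Among them were SNO1 and SNZ1, PAI3 and SIP18, HTB1 and HTA1, and SPS4 and SFG1. Untested genes could lie between the members of a pair, and gaps ran up to 5900 bases. The number of pairs was not compared with that over all tested genes.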

How the data were processed

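Poly(A) RNA of 6 libraries was analysed from 1 deposited table of coverage per strand in bins of 50 bases. Per the file headers, the authors scaled this coverage signal to the fission yeast spike-in, and gave a second set normalized to 1. Per the submitters' processing notes, CASAVA 1.7.0 was used. Neither the aligner nor the budding yeast build is given in the sources used here. Positions are those of the deposited table. The deposited replication timing score is on a scale that is not stated.

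A gene's value was the mean of the sense-strand bins inside its ORF, leaving out the first and last bin, introns and bins of other ORFs on that strand. Bins with a letter in place of a number (11670 of 240976) were left out, and 21 tested genes rest on 1 bin. RefSeq protein-coding genes were matched by 5871 of the 6525 deposited ORFs, and mating-type loci were not analysed here. Values were tested as log2(coverage + 0.0592) with limma 3.58.1 in R 4.3.3, in 1 fit of 3 groups (3 residual degrees of freedom), with Benjamini-Hochberg adjustment over all genes tested and a threshold of 0.05. Log2 fold changes are on that scale, which understates the change of low genes. SE is that of the moderated fit. The ratio of first to second part of the ORF was fitted for genes with at least 8 bins in the upper 50% of levels, and antisense coverage for genes with at least 4 bins clear of ORFs on the other strand. The fit was run on simulated, independent, normally distributed values with known changes. That simulation held no shift of a whole library or chromosome, so it does not test the calls made here. Read counts are not in the table, so that the depth is unknown beyond the coverage step, and no counting interval is given.

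The members and the gene lists were chosen with earlier results of these data known. Genes named by rule were the genotype genes, the 20 largest called rises and falls with groups apart, up to 4 called members of each list (or the 2 of smallest p), the 6 called genes of highest level, 12 genes each of the antisense and ratio fits, and the 10 called genes that differed most from the hst3 hst4 deletion. Other list members, and the genes of the promoter and coverage displays, were added after their values were seen. Promoters were read from RefSeq's R64 genome and annotation with Python 3.11.15. Other pseudocounts, filters, scales, fits, blocks and left-out libraries were tried.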

Additional observations from a re-analysis of the deposited data

How the results depend on the processing

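All 87 called genes named by the rule kept their direction in each of the 19 alternatives in which they were tested. They were chosen as called, and 175 of all 179 called genes had groups apart. Their direction could therefore hardly change, and its stability is no support. Calls were lost in many alternatives, with 2 of the 87 kept at a pseudocount 10 times larger and 4 without a filter on low values. With a pseudocount 10 times larger 2 genes rose, 0 fell, 0 differed from the hst3 hst4 deletion and 2 changed in the ratio of first to second part of the ORF; without a filter on low values these counts were 3, 1, 1 and 0. With centred libraries 11 fell and 14 differed (median of all genes -0.070), after quantile normalization 18 and 25 (-0.094), and on the scale normalized to 1 245 rose, 10 fell and 26 differed (0.047). With 4 libraries 80 fell and 0 part ratios changed, and with a trended spread 101 fell, 167 differed and 3 part ratios changed. From the second part of the ORF alone 84 rose, 20 fell and 8 differed; with the lowest 25% left out 0 part ratios were called.

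Leaving out 1 library at a time gave 2 to 119 rises, 1 to 129 falls, 0 to 89 differences from the hst3 hst4 deletion and 0 to 16 part ratios. A lone library was then assumed to vary like the other groups. Except for these left-out libraries, the cause of each change was not tested.

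The shared replicate numbers were not taken to pair the libraries. Deviations of same-numbered libraries correlated at -0.227 for wild type and the rtt109 deletion, 0.0646 for wild type and the hst3 hst4 deletion, and 0.222 for the 2 deletions, with 2 pairs each. With a replicate block 81 genes rose, 20 fell, 12 differed from the hst3 hst4 deletion (72 without the block) and 0 part ratios changed. Crossed pairing of wild type and rtt109 deletion, chosen after seeing the data as were both chromosome 2 alternatives, gave 149 rises, 68 falls and 14 part ratios. No antisense call was made by limma in any alternative. Coverage steps of 0.00397 to 0.00771 limit what can be said of genes near 0.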

Other observations

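Pairs of called genes that followed each other among tested genes were counted by orientation, without the same count over all tested genes. Of the 8 pairs of rises 4 were divergent, 3 in tandem and 1 convergent, and of the 4 pairs of falls 2 were divergent and 2 in tandem. The divergent pairs SNO1 with SNZ1 and HTB1 with HTA1 can share a promoter region. YJR146W overlaps the start of HMS2 on the same strand, and the bins they share entered neither value.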
